A study of Homo sapiens with 6 samples.

Results

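The proteasome genes of T47D cells were taken as every gene symbol in the deposited counts that starts with PSMA to PSMG and a number, carries no hyphen and averaged at least 10 counts over the 6 libraries. The rule matched 47 of the 27754 genes counted, and all 47 passed the filter on low counts. A further 7 symbols with this prefix were left out. PSMA8, a germ cell α subunit, and PSMB11, a thymus β subunit, had 0 counts in every library, which allows up to 3 counts in a library of this depth, and 5 antisense RNAs carried a hyphen. PSMC3IP, a factor of meiotic recombination, shares the prefix only and was set apart, which left 46 proteasome genes.

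The proteasome is the protease that degrades proteins tagged with ubiquitin. Its barrel-shaped 20S core stacks rings of α subunits (PSMA) around rings of β subunits (PSMB), some of which carry the active sites, and the 19S regulatory particle on the end of the barrel binds ubiquitin chains, removes them and unfolds the substrate with a ring of ATPases. Cells exposed to interferon exchange the catalytic β subunits for immuno counterparts that favour peptides for antigen presentation, and activators of the PSME group can take the place of the 19S particle.

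T47D is a luminal breast cancer cell line that expresses the estrogen and progesterone receptors. The study compared 3 libraries from cells in 20% O2 (normoxia) with 3 libraries from cells kept for 48 h in a chamber that the labels set to 0.5% O2 (hypoxia), while the study's text gives another O2 level for this experiment. All cells were unmodified T47D grown as adherent cultures in RPMI medium with 10% FBS, so every result is of 1 cell line. The labels do not say whether the numbered replicates were separate cultures, while the study describes its replicates as independent experiments, and the p-values measure the spread between these libraries. In both conditions replicates 1 and 2 were closer to each other than to replicate 3. The chi-square per degree of freedom over genes was 8.08 and 6.09 between replicates 1 and 2 (normoxia and hypoxia). Against replicate 3 it was 34.7 to 68.5. Values are deposited gene counts divided by the TMM-normalized library size and scaled to a common total (CPM), and changes are log2-fold changes of hypoxia over normoxia with their standard errors (SE) and Benjamini-Hochberg adjusted p-values from edgeR's quasi-likelihood test, called at 0.05. In RNA from whole cultures, fewer cells with a transcript and less transcript per cell cannot be told apart, and CPM gives shares of the RNA counted and not amounts per cell.

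The libraries held 32989104 to 40943424 counts in normoxia and 34640756 to 89883409 in hypoxia, the deepest being hypoxia replicate 3. All 5 hypoxia genes checked (VEGFA, CA9, SLC2A1, PDK1 and NDRG1) rose, by 1.80 to 5.29 on the log2 scale. The 9 luminal markers summed to 13959 to 18121 CPM in normoxia and to 10193 to 13471 CPM in hypoxia. Of these, 4 were lower and 5 did not pass, where 29.1% of all genes tested were lower and 30.4% higher. With the replicate block 6 were lower and 1 higher (CDH1), where 35.2% of all genes tested were lower and 36.6% higher. The receptor genes ESR1 and PGR fell by 1.86 and 2.93, the most of the 9, while EPCAM (0.03), KRT19 (-0.04) and CDH1 (0.19) did not pass. The 10 mesenchymal and basal markers summed to 182 to 208 CPM in normoxia and to 258 to 283 CPM in hypoxia. FN1 and CDH2 rose and the other 6 of the 8 tested did not pass, where 30.4% of all genes tested rose. With the replicate block 4 rose, CD44 and CAV1 as well, where 36.6% of all genes tested rose. Most of the difference in the sum lay in FN1 (38.8 to 92.0 CPM, means) and CD44 (60.9 to 85.6 CPM, not past the test), while COL1A1 had means of 88.7 and 84.3 CPM. The 5 immune markers summed to 1.001 to 1.67 CPM in normoxia and to 6.37 to 8.17 CPM in hypoxia, nearly all of it CD68, while TYROBP was at 0 in all 6 libraries and PTPRC, CD3E and LST1 stayed at or under 0.148 CPM. VIM, a mesenchymal filament gene, stood at 12.8 and 10.95 CPM in replicate 3 of normoxia and hypoxia and at 0.18 to 0.96 CPM in the other 4 libraries. MSN (1.94 and 1.82 CPM), CAV1 (1.26 and 2.17 CPM) and SPARC (1.10 and 0.83 CPM) were also highest in replicate 3 of normoxia and hypoxia. They stood at or under 0.547 CPM in the other 4 libraries. FN1 and CD44 were instead lowest in replicate 3 of each condition. Whether replicate 3 differed in its cell content was not tested. The part of these marker changes in the results was not tested.

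Most proteasome genes were lower in hypoxia. Of the 46 genes, 43 fell, 0 rose and 3 did not pass the test, namely the immuno subunits PSMB8 and PSMB9 and the inhibitor PSMF1, whereas 59.5% of the 15657 genes tested passed, 29.1% lower and 30.4% higher. The count of higher genes was also 0 at an unadjusted p under 0.05, with edgeR's exact test and with DESeq2. The median log2-fold change was -0.66, so that the median gene was at 63.2% of its normoxia level, and the median over all genes tested was 0.03. Within the same-numbered pairs of libraries the median was -0.72, -0.58 and -0.74. With the replicate number as a term in the model, 44 of the 46 fell, against 35.2% of all genes tested, while 36.6% of all genes tested rose. In 44 genes hypoxia was lower in all 3 pairs (40.1% of all genes tested). In 43 genes every hypoxia library lay below every normoxia library (32.4% of all genes tested), and 34 genes fell by at least 0.5 on the log2 scale (18.7% of all genes tested).

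Summed over the 46 genes, the proteasome took 7407, 6840 and 8474 CPM in normoxia replicates 1, 2 and 3 and 4450, 4335 and 5034 CPM in hypoxia replicates 1, 2 and 3. The conditions did not overlap, with 7574 ± 830 CPM in normoxia and 4606 ± 375 CPM in hypoxia (mean ± SD, n = 3), or 60.8% of the normoxia sum. Among the genes matched by the rule, all 14 of the 20S core (median -0.74), all 17 of the 19S particle (median -0.71), all 4 activators (median -0.93) and all 7 assembly chaperones (median -0.54) fell. Of the 3 immuno subunits 1 fell (median -0.27), and the inhibitor PSMF1 had a log2-fold change of 0.03. The plot of every gene by role shows these groups beside the median of all genes tested. Another scaling, by upper quartiles, moved the median of all genes tested by 0.16, and with it 21.0% of all genes tested fell and 38.1% rose. It gave 37 lower and 1 higher proteasome genes with a median of -0.50. A change of scaling shifts the log2-fold changes of all genes nearly alike. The distance of the proteasome median from the median of all genes, -0.69 under both scalings, is therefore no test of the scaling. Scaling by library size alone gave 40 lower proteasome genes with a median of -0.54. It moved the median of all genes tested by 0.12, and 61.0% of the calls over all genes were then on the higher side.

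**Figure D1:**
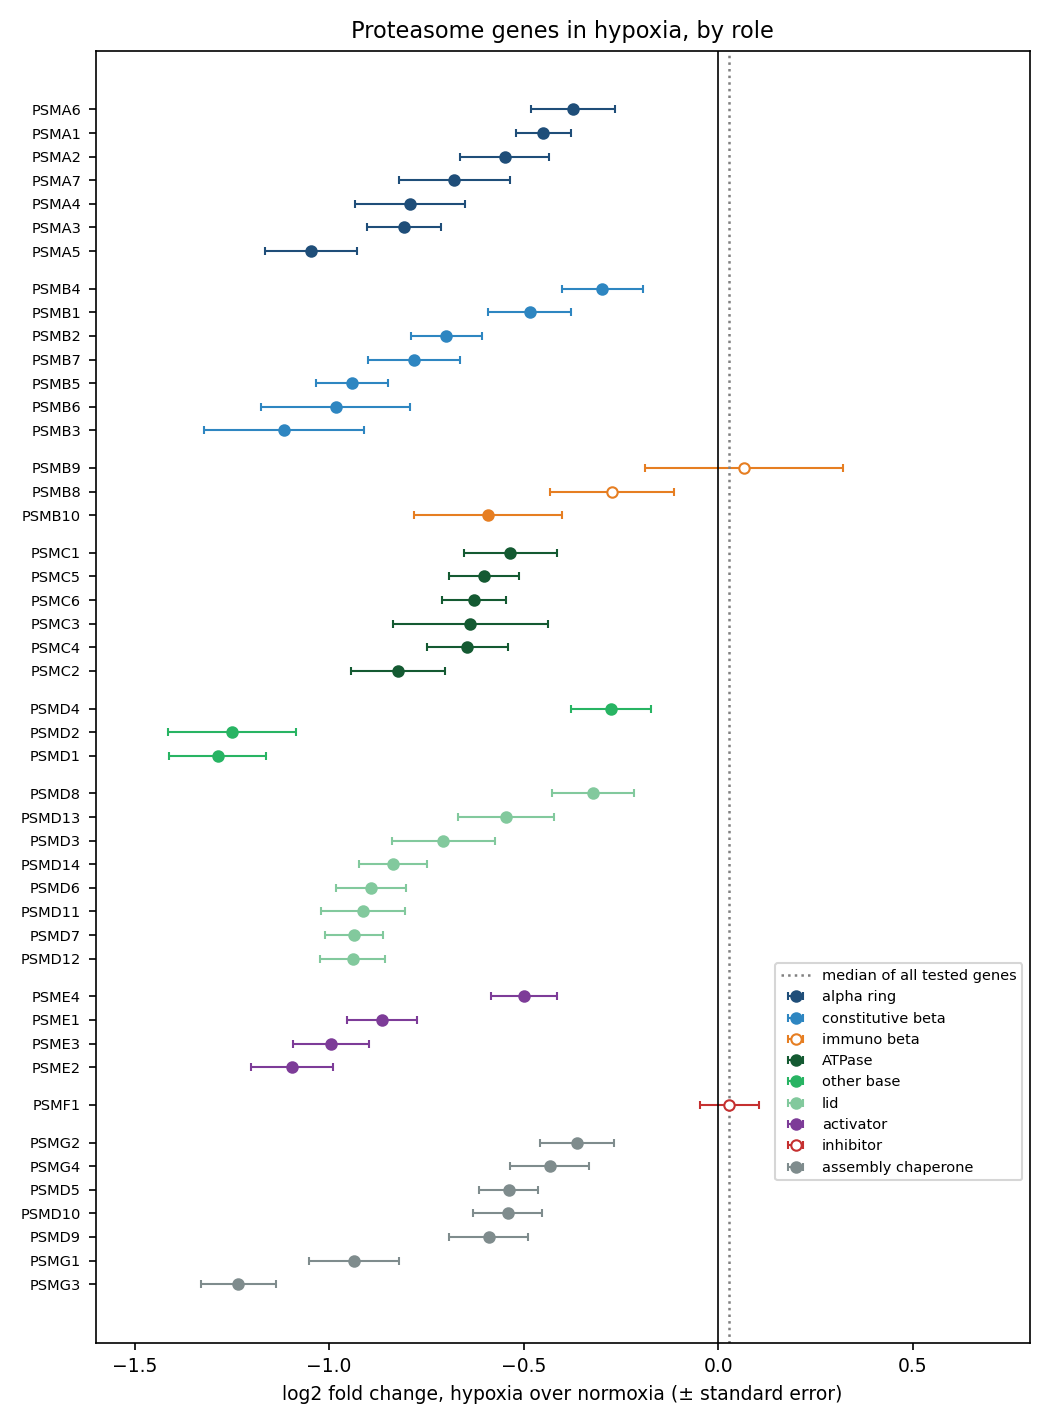
Log2-fold change (x axis, hypoxia over normoxia, with its standard error) of the 46 proteasome genes, 1 row each, grouped and coloured by role. Filled points passed an adjusted p of 0.05 and open points did not, the dotted line marks the median of all genes tested (0.03), and the points run from -1.29 (PSMD1) to 0.07 (PSMB9).

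Many proteasome genes are transcribed by NFE2L1, a factor that recognises the antioxidant response element with a small MAF partner, so promoter sequence is shown for the genes with the highest or lowest change of their group that hold its core. RefSeq promoters (GRCh38.p14, 250 bases before to 50 after the start of the gene) were matched for 41 of the 47 symbols. The core of the element, TGACNNNGC on either strand, occurred in 13 of the 41 promoters (31.7%), in 15.1% of the 11350 matched promoters of genes tested and in 13.6% of all 27305 promoters. It occurred 15 times in the 13 promoters, and 0 of these matches overlapped another motif searched. Windows of 30 bases are given 5′ to 3′ on the strand of the gene, with the matching letters in capitals and the position of the first capital counted from the start of the gene at 0. PSMB3, PSMD1, PSMD12 and PSME2 had the lowest log2-fold change of their groups, PSMG2 the highest of the chaperones, PSME4 the highest of the activators and PSMB9 the highest of all 46 genes. In PSMB9 and PSME4 the match lies on the opposite strand. The promoters of PSMA5, PSMB10 and PSMC2, the lowest of their groups, of PSMA6, PSMB4, PSMC1 and PSMD8, the highest, and of the inhibitor PSMF1 held no match, and PSMG3 and PSMD4 were not matched to a promoter.
PSMB3 (chr17:38752627-38752656, + strand, position -104): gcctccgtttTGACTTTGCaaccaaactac
PSMD1 (chr2:231056887-231056916, + strand, position 39): ggcggcctgaggaggcgacTGACTGAGCag
PSMD12 (chr17:67366723-67366752, - strand, position -165): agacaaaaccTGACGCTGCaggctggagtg
PSME2 (chr14:24146766-24146795, - strand, position -175): ccctggactgTGACCCAGCcagcaccgcct
PSMG2 (chr18:12658689-12658718, + strand, position -39): cagtttcccgTGACCCCGCggccgctctgc
PSME4 (chr2:53971008-53971037, - strand, position -34): cccggcggctGCAGCGTCAccagcagagcc
PSMB9 (chr6:32854034-32854063, + strand, position -148): gggcggggctGCCTCGTCActtgtctcggg

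The windows were chosen for holding the core letters, so that they share them was fixed by the choice. They come from genes that fell by over 1 on the log2 scale (PSMB3, PSMD1 and PSME2) and from PSMD12 (-0.94), PSME4 (-0.50) and PSMG2 (-0.36). PSMB9, which did not pass the test, is also among them. The 13 proteasome genes with the letters had a median log2-fold change of -0.71 (range -1.29 to 0.07), and the 27 matched genes without them had a median of -0.63 (range -1.25 to 0.03). The cores of the hypoxia response element occurred in 9 of the 41 promoters as ACGTG (21.95%, against 26.2% of promoters of genes tested) and in 15 as GCGTG (36.6%, against 49.8%). The interferon-γ activated site TTCNNNGAA, which reads the same on both strands, occurred in 4 (9.76%, against 6.35%). Both strands were searched in each case, and a match describes letters and not binding.

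In the outer rings of the core, all 7 α genes fell, by 0.37 to 1.05 on the log2 scale. The α subunits gate the entrance of the barrel and anchor the regulatory particles. PSMA5 (chromosome 1, 109941653 to 109969108, - strand; hg19 here and below) had 104, 102 and 126 CPM in normoxia and 50.8, 49.1 and 60.6 CPM in hypoxia, replicates 1, 2 and 3 in order here and below. Every hypoxia library was below every normoxia library, and the log2-fold change of -1.05 ± 0.12 (SE, adjusted p = 0.000292) was the lowest of the α genes. PSMA6 (chromosome 14, 35747764 to 35786685, + strand) had 211, 201 and 257 CPM in normoxia and 164, 165 and 186 CPM in hypoxia. These groups did not overlap either, although the gap was narrow, and the change of -0.37 ± 0.11 (SE, adjusted p = 0.0182) was the smallest of the 7. Between them lay PSMA3 (-0.81), PSMA4 (-0.79), PSMA7 (-0.68), PSMA2 (-0.55) and PSMA1 (-0.45). The call of PSMA6 was lost without hypoxia replicate 1 (log2-fold change -0.34, adjusted p = 0.0693), without hypoxia replicate 2 (-0.35, adjusted p = 0.0602) and with upper-quartile scaling. It was also lost without both libraries of replicate 1 (adjusted p = 0.126) or of replicate 2 (0.0532). PSMA2 lost its call only when both libraries of replicate 1 were left out (adjusted p = 0.0597).

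The 7 constitutive β genes, which form the inner rings, also all fell, by 0.30 to 1.12 on the log2 scale. PSMB3 (chromosome 17, 36908966 to 36920484, + strand), a structural β subunit, had 177, 167 and 237 CPM in normoxia and 77.4, 73.1 and 117 CPM in hypoxia. It fell in every pair, and its change was -1.12 ± 0.21 (SE, adjusted p = 0.00244). PSMB4 (chromosome 1, 151372041 to 151374412, + strand), a structural β subunit needed for core assembly, had 319, 304 and 377 CPM in normoxia and 258, 259.6 and 296 CPM in hypoxia. The groups did not overlap, but the change of -0.30 ± 0.10 (SE, adjusted p = 0.0376) lost its call without normoxia replicate 1 (adjusted p = 0.0623), without normoxia replicate 3 (0.0849), without hypoxia replicate 1 (0.126) and without hypoxia replicate 2 (0.111), and with both scaling alternatives. The structural subunits PSMB1 and PSMB2 changed by -0.48 and -0.70, and PSMB1 lost its call only without both libraries of replicate 1 (adjusted p = 0.0553).

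The 3 catalytic subunits fell to between 50.6% and 58.2% of normoxia. PSMB5 (chromosome 14, 23495060 to 23504429, - strand), which carries the chymotrypsin-like activity and is the main target of the drug bortezomib, had 65.5, 56.0 and 67.9 CPM in normoxia and 33.1, 32.8 and 32.8 CPM in hypoxia. The hypoxia libraries were nearly alike, and the change was -0.94 ± 0.09 (SE, adjusted p = 0.000174). PSMB6 (chromosome 17, 4699439 to 4701798, + strand), the caspase-like subunit, had 80.0, 67.4 and 102 CPM in normoxia and 37.7, 35.6 and 52.4 CPM in hypoxia. Replicate 3 was the highest in both conditions, the groups did not overlap, and the change was -0.98 ± 0.19 (SE, adjusted p = 0.0031). PSMB7 (chromosome 9, 127115744 to 127177752, - strand), the trypsin-like subunit, had 233, 211 and 271 CPM in normoxia and 130.3, 129.7 and 156 CPM in hypoxia. Its change was -0.78 ± 0.12 (SE, adjusted p = 0.00098), with 38.3% of its exon bases shared with LOC100129034 on the opposite strand, and since the strand setting of the counting is not given in the sources used here, reads of this overlap cannot be told apart.

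Of the 3 immuno counterparts, PSMB10 alone passed the test. PSMB10 (chromosome 16, 67968407 to 67970780, - strand), the immuno counterpart of PSMB7, had 16.5, 14.9 and 23.6 CPM in normoxia and 10.99, 11.3 and 14.1 CPM in hypoxia, and it fell with a change of -0.59 ± 0.19 (SE, adjusted p = 0.0272). That call was lost without normoxia replicate 3 (log2-fold change -0.37, adjusted p = 0.0502), hypoxia replicate 1 (-0.53, adjusted p = 0.0899) or hypoxia replicate 2 (-0.55, adjusted p = 0.0801), and with upper-quartile scaling (adjusted p = 0.0595). PSMB8 (chromosome 6, 32808494 to 32812712, - strand), the counterpart of PSMB5, had 23.0, 24.2 and 29.5 CPM in normoxia and 18.1, 19.2 and 25.9 CPM in hypoxia. It was lower in each of the 3 pairs, but the groups overlapped and the change of -0.27 ± 0.16 (SE, adjusted p = 0.173) did not pass. With a replicate block the change was -0.29 with an adjusted p of 0.00793, without hypoxia replicate 3 it was -0.46 with an adjusted p of 0.0177, and without both libraries of replicate 3 it was -0.33 with an adjusted p of 0.00374. PSMB9 (chromosome 6, 32821938 to 32827628, + strand), the counterpart of PSMB6, had 4.03, 4.84 and 5.10 CPM in normoxia and 4.42, 3.39 and 6.66 CPM in hypoxia. The groups overlapped fully, with a change of 0.07 ± 0.25 (SE, adjusted p = 0.834), and the sign turned without normoxia replicate 1 (-0.04) and without hypoxia replicate 3 (-0.25). PSMB8 and PSMB9 lie in the MHC region, which the deposited annotation places on 8 contigs (chromosome 6 and 7 alternate haplotypes), and PSMB8 shares 12.7% of its exon bases with PSMB8-AS1 on the opposite strand, so the levels of both are less certain than those of the other subunits. The plot of the catalytic subunits shows all 6 genes by library.

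**Figure D2:**
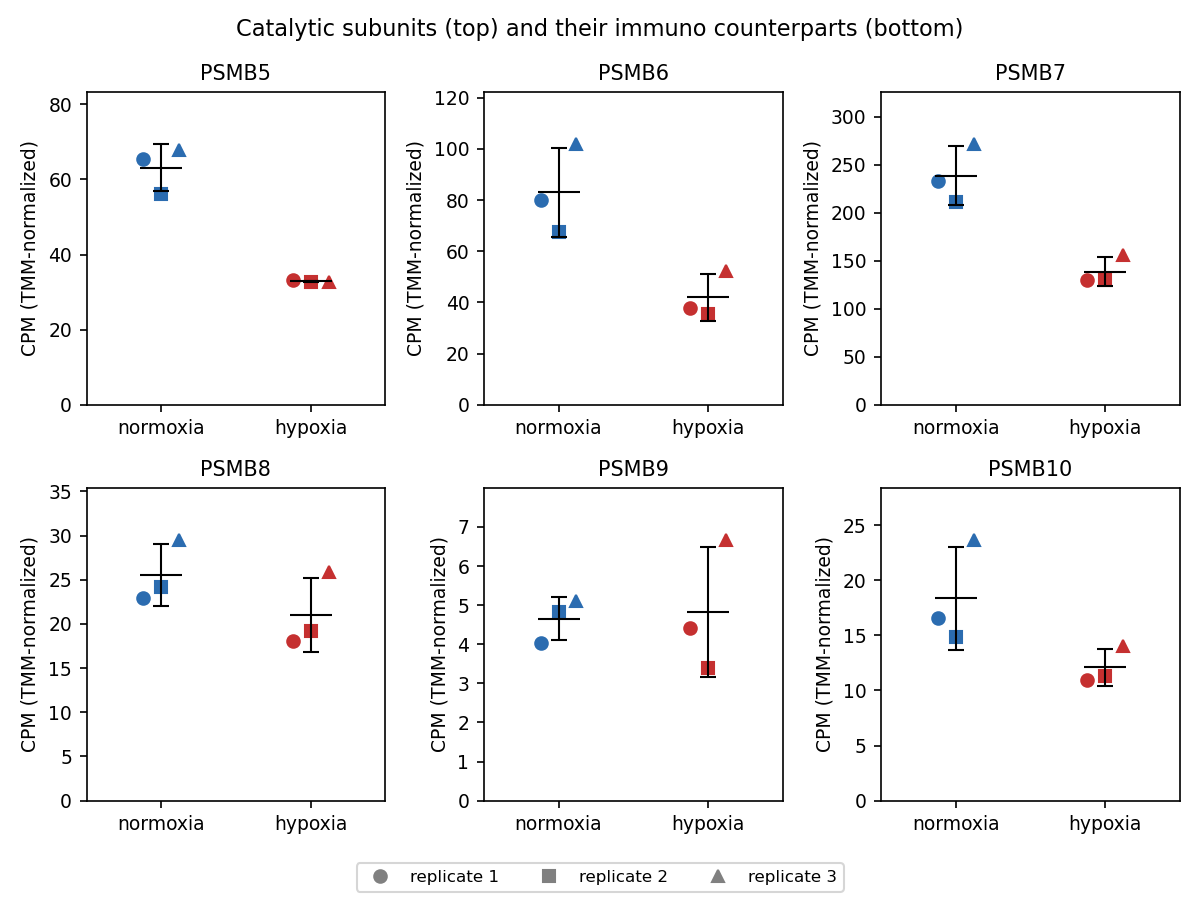
CPM (y axis, from 0) of the catalytic subunits PSMB5, PSMB6 and PSMB7 (top) and of their immuno counterparts PSMB8, PSMB9 and PSMB10 (bottom) in normoxia (blue) and hypoxia (red), with 1 point per library shaped by replicate and the mean ± SD of 3 libraries in black. The groups are apart in the top row and for PSMB10, and they overlap for PSMB8 and PSMB9.

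The balance between constitutive and immuno subunits was also read within each library, where the scaling between libraries cancels. PSMB8 gave 35.0, 43.2 and 43.5 counts per 100 counts of PSMB5 in normoxia and 54.7, 58.7 and 78.8 in hypoxia. PSMB9 gave 5.04, 7.18 and 5.01 counts per 100 counts of PSMB6 in normoxia and 11.7, 9.53 and 12.7 in hypoxia. For both pairs every hypoxia library was above every normoxia library, with differences of 0.65 and 0.99 on the log2 scale. An exact two-sided permutation test gave p = 0.1 for each (adjusted over the 3 ratios, 0.15), which is the smallest p that this test allows for 3 against 3 libraries, so the test could not have passed 0.05. PSMB10 gave 7.09, 7.06 and 8.71 counts per 100 counts of PSMB7 in normoxia and 8.43, 8.73 and 9.02 in hypoxia, where the groups overlapped and the difference was 0.20 (exact permutation p = 0.2, adjusted 0.2). All 3 ratios were higher in hypoxia in each pair. The denominators PSMB5, PSMB6 and PSMB7 changed by -0.94, -0.98 and -0.78, and PSMB8, PSMB9 and PSMB10 by -0.27, 0.07 and -0.59. A gene without change would also rise against these denominators. The ratios therefore restate the changes given above and do not show a rise of the immuno subunits. The plot of the ratios joins the libraries of a pair.

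**Figure D3:**
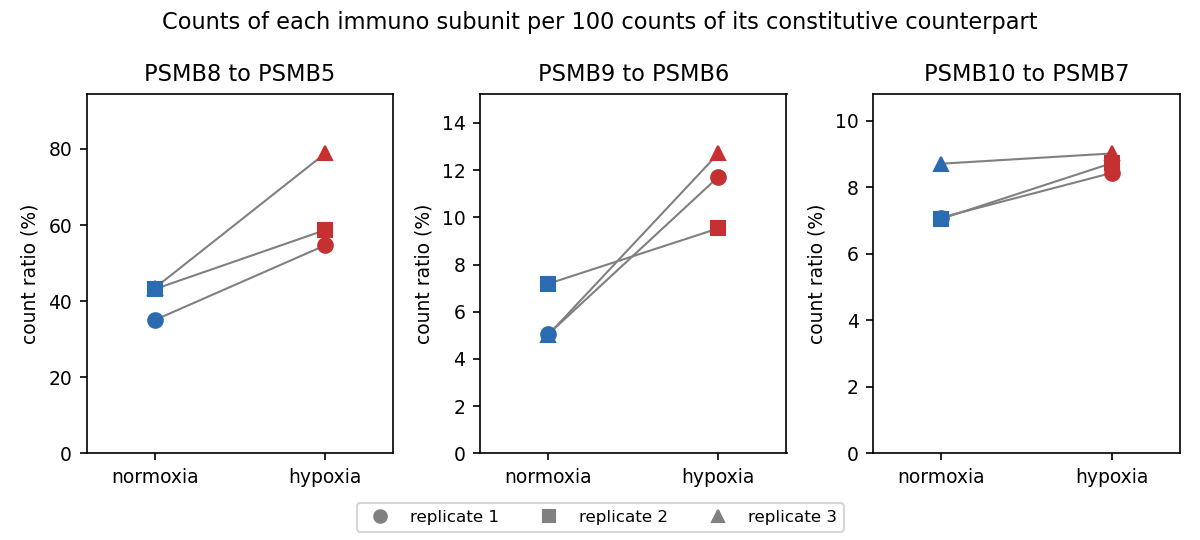
Counts of PSMB8, PSMB9 and PSMB10 per 100 counts of PSMB5, PSMB6 and PSMB7 (y axis, percent, from 0) in each library, normoxia in blue and hypoxia in red, with lines joining libraries of the same replicate number. Each of the 9 lines rises, and the conditions are apart for the first and second ratio only.

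In the 19S particle, the 6 ATPases that unfold substrates (PSMC1 to PSMC6) fell within a narrow range, by 0.53 to 0.82. PSMC2 (chromosome 7, 102987971 to 103009842, + strand) had 100.05, 90.6 and 122 CPM in normoxia and 58.2, 55.4 and 63.3 CPM in hypoxia, the lowest change of the ring at -0.82 ± 0.12 (SE, adjusted p = 0.000868). PSMC1 (chromosome 14, 90722894 to 90738969, + strand) had 163, 143 and 133 CPM in normoxia and 107, 111 and 85.9 CPM in hypoxia, the highest change of the ring at -0.53 ± 0.12 (SE, adjusted p = 0.0059). In both genes the groups were apart. PSMC4 (-0.65), PSMC3 (-0.64), PSMC6 (-0.63) and PSMC5 (-0.60) lay between them. Hypoxia replicate 3 was just below the lowest normoxia library for PSMC3, which had 217, 190.4 and 275 CPM in normoxia and 131, 118 and 190.1 CPM in hypoxia. Its call (adjusted p = 0.0245) was lost without normoxia replicate 3 (adjusted p = 0.0584), hypoxia replicate 1 (0.0835) or hypoxia replicate 2 (0.0765). PSMC1 lost its call only without both libraries of replicate 1 (adjusted p = 0.0637).

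The base of the 19S particle held the largest falls of the proteasome and also one of the smallest. PSMD1 (chromosome 2, 231921578 to 232037540, + strand), a large scaffold that docks the ubiquitin receptor ADRM1, had 194, 175 and 219.6 CPM in normoxia and 75.9, 72.2 and 93.0 CPM in hypoxia. It was at 41.0% of normoxia, with a change of -1.29 ± 0.12 (SE, adjusted p = 0.000163). PSMD2 (chromosome 3, 184016886 to 184026842, + strand), the other large scaffold, had 799, 694 and 943 CPM in normoxia and 317, 288 and 419.9 CPM in hypoxia, with a change of -1.25 ± 0.16 (SE, adjusted p = 0.000555). In both genes every hypoxia library was below every normoxia library. PSMD4 (chromosome 1, 151227176 to 151239954, + strand), a ubiquitin receptor, had 250.3, 247 and 301 CPM in normoxia and 207, 212 and 239.8 CPM in hypoxia, and its change of -0.28 ± 0.10 (SE, adjusted p = 0.0474) was the weakest call among the 43. It was lost without normoxia replicate 1 or 3 or hypoxia replicate 1 or 2 (adjusted p of 0.0636 to 0.154), and with upper-quartile scaling (log2-fold change -0.12) or library size only (-0.16).

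The 8 lid genes with a PSM symbol fell by 0.32 to 0.94. PSMD12 (chromosome 17, 65334032 to 65362743, - strand), a structural subunit, had 215, 190.4 and 223 CPM in normoxia and 114, 105 and 109 CPM in hypoxia, with a change of -0.94 ± 0.08 (SE, adjusted p = 0.000125). PSMD14 (chromosome 2, 162164786 to 162268228, + strand), the metalloprotease that removes ubiquitin chains from substrates, changed by -0.83 ± 0.09 (SE, adjusted p = 0.000219). PSMD7, the inactive partner of PSMD14, changed by -0.94, and PSMD11, PSMD6, PSMD3 and PSMD13, which build the lid with PSMD12, by -0.91, -0.89, -0.71 and -0.55. PSMD8 (chromosome 19, 38865190 to 38874464, + strand), another structural subunit, had 129.6, 118 and 143 CPM in normoxia and 97.4, 98.4 and 117 CPM in hypoxia. Its change of -0.32 ± 0.11 (SE, adjusted p = 0.0296) was the smallest of these 8 genes. SEM1, a lid protein outside the rule, is given below with the partners. The PSMD8 call was lost with both scaling alternatives and in 4 of the 6 fits with a single library left out (adjusted p of 0.0691, 0.0706, 0.108 and 0.0948 without normoxia replicate 1 and 3 and hypoxia replicate 1 and 2). PSMD13 lost its call only without both libraries of replicate 1 (adjusted p = 0.0617).

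All 4 activator genes fell and the inhibitor did not pass the test. PSME1 (chromosome 14, 24605367 to 24608176, + strand), which forms the interferon-inducible PA28αβ ring with PSME2, had 88.2, 92.4 and 78.6 CPM in normoxia and 45.1, 46.9 and 50.3 CPM in hypoxia, a change of -0.86 ± 0.09 (SE, adjusted p = 0.000219). PSME2 (chromosome 14, 24612574 to 24615855, - strand) had 51.0, 49.2 and 41.5 CPM in normoxia and 22.5, 23.5 and 20.4 CPM in hypoxia, a change of -1.09 ± 0.11 (SE, adjusted p = 0.000166). Both subunits of the ring were lower in every hypoxia library. Interferon induces the immuno subunits as well. Every hypoxia library of PSMB10 also lay below every normoxia library, while the libraries of PSMB8 and PSMB9 overlapped between conditions. PSMB8 was lower in hypoxia in every pair. PSME3 (chromosome 17, 40985159 to 40995777, + strand), the nuclear activator PA28γ, had 392, 355 and 445 CPM in normoxia and 198, 191 and 209 CPM in hypoxia, a change of -0.995 ± 0.10 (SE, adjusted p = 0.000169). PSME4 (chromosome 2, 54091204 to 54197977, - strand), the activator PA200, had 131, 123 and 144 CPM in normoxia and 93.4, 98.4 and 89.4 CPM in hypoxia, a change of -0.50 ± 0.08 (SE, adjusted p = 0.00165). The groups of both genes were apart. PSMF1 (chromosome 20, 1093872 to 1152890, + strand), the inhibitor PI31 that binds the core, had 147, 144 and 160.04 CPM in normoxia and 151, 148 and 161 CPM in hypoxia. Replicate 3 was the highest in both conditions, the groups overlapped, and the change was 0.03 ± 0.08 (SE, adjusted p = 0.769), or 0.19 with an adjusted p of 0.0416 under upper-quartile scaling. The plot of the activators shows these 5 genes by library.

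**Figure D4:**
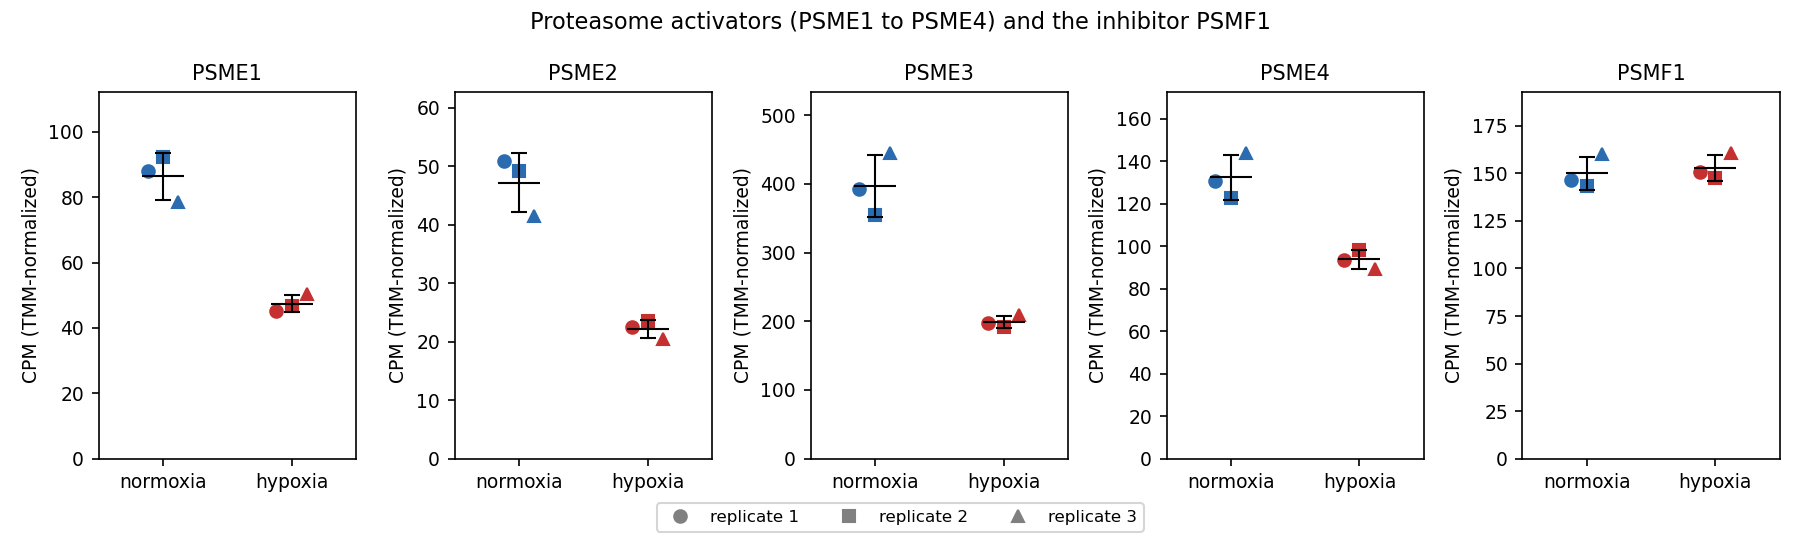
CPM (y axis, from 0) of the activators PSME1 to PSME4 and of the inhibitor PSMF1 in normoxia (blue) and hypoxia (red), with 1 point per library shaped by replicate and the mean ± SD of 3 libraries in black. The hypoxia points lie below the normoxia points in the first 4 panels, and in the PSMF1 panel they overlap, with all 6 libraries between 144 and 161 CPM.

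The 7 assembly chaperones, which build the core (PSMG1 to PSMG4) and the base (PSMD5, PSMD9 and PSMD10), fell by 0.36 to 1.23. PSMG3 (chromosome 7, 1606970 to 1609668, - strand), which pairs with PSMG4 on the α ring, had 70.6, 62.7 and 69.6 CPM in normoxia and 30.5, 25.8 and 29.9 CPM in hypoxia, a change of -1.23 ± 0.10 (SE, adjusted p = 7.97e-05). Its partner PSMG4 fell by less, with 20.0, 19.5 and 21.8 CPM in normoxia and 14.2, 14.8 and 16.3 CPM in hypoxia, a change of -0.43 ± 0.10 (SE, adjusted p = 0.00703). The other pair of core chaperones was uneven as well. PSMG1 changed by -0.94, and PSMG2 (chromosome 18, 12658738 to 12725739, + strand), which binds it, had 54.9, 54.8 and 62.5 CPM in normoxia and 41.9, 43.0 and 48.8 CPM in hypoxia, a change of -0.36 ± 0.10 (SE, adjusted p = 0.0119). The base chaperones PSMD9, PSMD10 and PSMD5 changed by -0.59, -0.54 and -0.54. The PSMG2 call was lost without hypoxia replicate 1 (adjusted p = 0.0534), without both libraries of replicate 1 (0.122) or of replicate 2 (0.0682) and with upper-quartile scaling. That of PSMG4 was lost only without both libraries of replicate 1 (0.115) or of replicate 2 (0.0507). PSMC3IP, which is no subunit, changed by -0.53 ± 0.17 (SE, adjusted p = 0.0276) with overlapping groups, and it lost that call without normoxia replicate 1 or 3 or hypoxia replicate 1 or 2 (adjusted p of 0.0581 to 0.0928) and with upper-quartile scaling.

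Levels between genes were compared per length, as CPM per kilobase of exon (RPKM). In normoxia the core genes ran from 22.3 RPKM (PSMB2) to 361 RPKM (PSMB4) with a median of 153 RPKM, and the 19S genes from 32.5 RPKM (PSMC2) to 257 RPKM (PSMD2) with a median of 84.8 RPKM. The activators ran from 18.7 RPKM (PSME4) to 102 RPKM (PSME3) and the chaperones from 19.6 RPKM (PSMG4) to 49.5 RPKM (PSMG2). The immuno subunits were the scarcest group, at 4.44 RPKM (PSMB9), 14.4 RPKM (PSMB8) and 18.2 RPKM (PSMB10). Summed RPKM in hypoxia was 64.3% of normoxia for the core, 61.1% for the 19S particle, 52.3% for the activators, 62.7% for the chaperones and 76.9% for the immuno subunits. Across the 46 genes the log2-fold change had a Spearman correlation of -0.16 with normoxia RPKM and of -0.07 with exon length, a description over genes that share their libraries. PSMF1 (8360 bases), PSME4 (7099), PSMB2 (4845) and PSMD12 (4690) have the longest annotated exons of these genes, so their RPKM is less certain.

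Among 13 partner proteins of the proteasome, 6 fell, 1 rose and 6 did not pass, where 29.1% of all genes tested fell and 30.4% rose. Log2-fold changes stand in parentheses here and below. ADRM1 (-0.68, adjusted p = 0.00684), the ubiquitin receptor on PSMD1, and the deubiquitinases USP14 (-0.72, adjusted p = 0.000229) and UCHL5 (-0.47, adjusted p = 0.00182) fell, as did POMP (-0.54, adjusted p = 0.000444), the chaperone that matures the β rings, the proteasome phosphatase UBLCP1 (-0.53, adjusted p = 0.00115) and the ligase UBE3C (-0.21, adjusted p = 0.0341). ZFAND5 (0.25, adjusted p = 0.0482), a stress-inducible activator of the 26S particle, rose. The ZFAND5 call was lost with DESeq2 (adjusted p = 0.0645) and without normoxia replicate 1 or 2 or hypoxia replicate 1 or 2 (adjusted p of 0.11 to 0.2), and the UBE3C call with both scaling alternatives and without normoxia replicate 1 or 3 or hypoxia replicate 1 or 2 (adjusted p of 0.0744 to 0.121). SEM1, a small lid protein whose symbol lies outside the rule, had 40.7, 39.6 and 50.2 CPM in normoxia and 35.6, 35.0 and 45.2 CPM in hypoxia, and it did not pass (-0.17, adjusted p = 0.303). With the replicate block SEM1 fell and KIAA0368, AKIRIN2 and FBXO7 rose, which gave 7 lower and 4 higher of the 13 (35.2% and 36.6% of all genes tested).

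Of 9 genes around NFE2L1, 6 rose, 2 fell and 1 did not pass (30.4% of all genes tested rose and 29.1% fell). NFE2L1 itself had 315, 309.6 and 301 CPM in normoxia and 502, 474 and 476 CPM in hypoxia, so every hypoxia library was above every normoxia library while most proteasome genes were below (0.65, adjusted p = 0.000227). The small MAF partners MAFF (1.85, adjusted p = 0.000328), MAFG (0.69, adjusted p = 0.00233) and MAFK (0.85, adjusted p = 0.00256) rose too, as did NGLY1 (0.64, adjusted p = 0.000284), the glycanase that edits NFE2L1 after it leaves the endoplasmic reticulum, and the related factor NFE2L2 (0.24, adjusted p = 0.02). DDI2, the protease that cuts NFE2L1 into its active form, had 8.31, 8.49 and 10.2 CPM in normoxia and 4.64, 5.66 and 5.10 CPM in hypoxia and fell (-0.81, adjusted p = 0.00227). VCP, the ATPase that extracts NFE2L1 from the membrane and hands many substrates to the proteasome, had 386, 358 and 428 CPM in normoxia and 189, 169 and 221 CPM in hypoxia and fell as well (-1.02, adjusted p = 0.000302). The ligase SYVN1 did not pass (0.12, adjusted p = 0.156), and the NFE2L2 call was lost without normoxia replicate 1 or 2 or hypoxia replicate 1 or 2 (adjusted p of 0.0570 to 0.118). These are transcript levels, and neither the cut form of NFE2L1 nor proteasome activity was measured here.

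Among 9 genes that make, activate or deliver ubiquitin, 6 fell, 0 rose (also 0 at an unadjusted p under 0.05, with the exact test and with DESeq2) and 3 did not pass, while 29.1% of all genes tested fell. UBB, a ubiquitin gene, had 545, 555 and 666 CPM in normoxia and 306, 276 and 398 CPM in hypoxia and fell (-0.85, adjusted p = 0.00185), while RPS27A (-0.03, adjusted p = 0.714), which encodes ubiquitin fused to a ribosomal protein, did not pass. The shuttle receptors UBQLN1 (-0.50, adjusted p = 0.000915), UBQLN4 (-0.43, adjusted p = 0.00435), RAD23B (-0.34, adjusted p = 0.0247) and UBQLN2 (-0.29, adjusted p = 0.0143) and the activating enzyme UBA1 (-0.31, adjusted p = 0.0314) fell. The calls of RAD23B, UBQLN2 and UBA1 were lost with both scaling alternatives and without hypoxia replicate 2 (adjusted p = 0.0874, 0.0549 and 0.108), those of RAD23B and UBA1 also without hypoxia replicate 1 (0.0766 and 0.114), and that of UBA1 also without normoxia replicate 1 or 3 (0.0583 and 0.0591). With the replicate block UBA6 and BAG6 fell as well, which gave 8 lower (35.2% of all genes tested). The median of this list was -0.31, against -0.66 for the proteasome genes and 0.03 for all genes tested.

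The 15 genes of class I antigen processing and interferon signalling did not move together, with 8 higher, 3 lower and 4 that did not pass, against 30.4% higher and 29.1% lower among all genes tested. The class I heavy chains HLA-B (1.10, adjusted p = 6.8e-05), HLA-C (0.82, adjusted p = 0.000294) and HLA-E (0.33, adjusted p = 0.00726) rose, as did the interferon-regulated factor IRF1 (1.61, adjusted p = 0.00033), the class I transactivator NLRC5 (1.09, adjusted p = 0.00114), the trimming peptidase ERAP1 (0.84, adjusted p = 0.000549) and the receptor genes IFNGR1 (0.78, adjusted p = 0.000242) and IFNGR2 (0.92, adjusted p = 0.00076). TAPBP, which loads peptides onto class I, had 189, 206 and 169.7 CPM in normoxia and 94.6, 104 and 87.8 CPM in hypoxia and fell (-0.98, adjusted p = 0.0002), together with TAP2 (-0.72, adjusted p = 0.0373) and JAK1 (-0.60, adjusted p = 0.00739). TAP1, which shares a bidirectional promoter with PSMB9, had 76.6, 75.3 and 85.5 CPM in normoxia and 67.3, 66.9 and 80.8 CPM in hypoxia and did not pass (-0.14, adjusted p = 0.255), nor did B2M (-0.002, adjusted p = 0.988), ERAP2 or JAK2. The HLA genes lie on the same alternate haplotype contigs as PSMB8 and PSMB9 and resemble each other, so how reads were divided among them is uncertain. The TAP2 call was lost with both scaling alternatives and without normoxia replicate 3 or hypoxia replicate 1 or 2 (adjusted p of 0.0947 to 0.117), and with the replicate block TAP1 fell, which gave 4 lower (35.2% of all genes tested) and left 8 higher (36.6%).

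**Figure D5:**
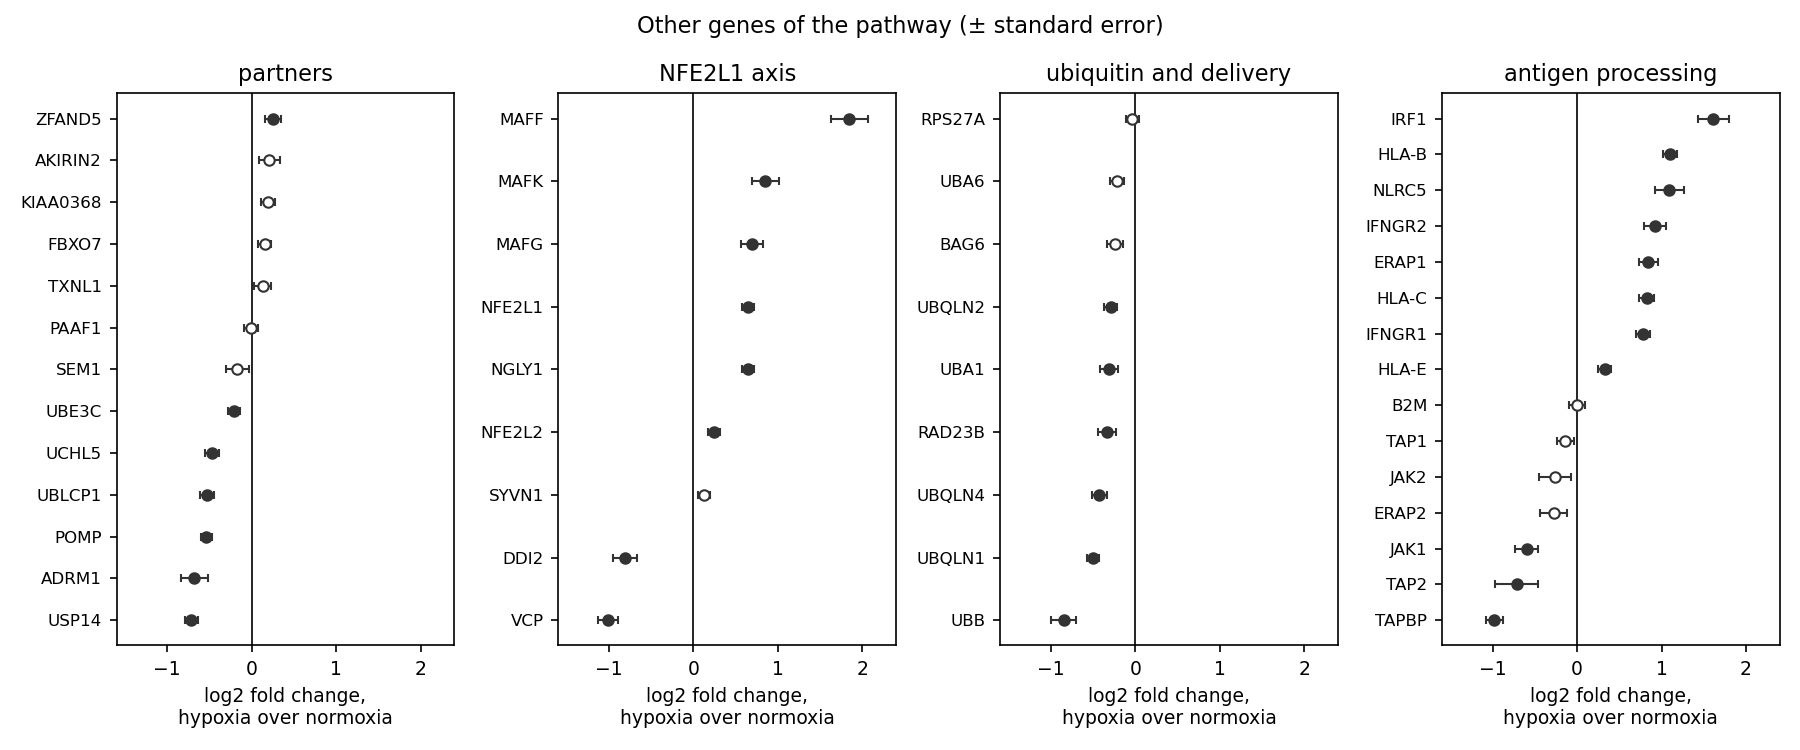
Log2-fold change (x axis, hypoxia over normoxia, with its standard error) of 13 partner genes, 9 genes around NFE2L1, 9 ubiquitin genes and 15 antigen processing genes, 1 row each, filled where the adjusted p was under 0.05. Points run from -1.02 (VCP) to 1.85 (MAFF), with 0 ubiquitin genes past the test on the higher side.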

How the data were processed

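Messenger RNA of T47D cells was sequenced in 3 normoxia and 3 hypoxia libraries. Per the labels and the study's methods, the authors prepared stranded mRNA libraries, checked reads with FastQC 0.11.5, trimmed adapters with Skewer, aligned to hg19 with STAR 2.5.2a and counted reads per RefSeq gene with featureCounts 1.5.1. The deposited values are raw counts, and the strand setting and the handling of reads with several matches are not given in the sources used here.

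Counts were tested in R 4.3.3 with edgeR 4.0.16 (TMM, quasi-likelihood test, condition only) over the 15657 genes that passed filterByExpr (minimum count of 10, minimum total of 15), with Benjamini-Hochberg adjustment at 0.05. The study's exact test, DESeq2 1.42.0, other scalings and filters, the replicate block and left-out libraries were alternatives. RPKM was CPM per kilobase of the exons on the primary chromosome. The replicate numbers of the labels were taken as pairs in the replicate block and in the values given by pair. Same-numbered libraries deviated together from their condition means (correlations across genes of 0.338, 0.422 and 0.575 for replicates 1, 2 and 3). Correlations between differently numbered libraries were not computed. With replicate 3 apart from the others in both conditions, these values cannot show that replicates 1 and 2 pair by number. The main test and the permutation test of the ratios did not use the pairs. The fits were tested on simulated data with 200 changed genes. The quasi-likelihood test recovered 96.4% of these, and 5.5% of its calls were false. The simulated libraries were independent, shared a common dispersion and held far fewer changed genes than were called here. The outcome therefore does not show how well the p-values hold in these data. Every member but PSMB9 had 414 counts or more in each library.

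The members, gene lists and tests were chosen with earlier results of these data known, and some genes of the lists are not reported here. Values in every library are given for catalytic and immuno subunits, activators, PSMF1, and the highest and lowest change of every other class. Any member that did not pass, or whose call changed with the block or a left-out library, is named. Per-library values of PSMC3, PSMD2 and PSMG4 were added after they were seen. RefSeq promoter sequences of GRCh38.p14 were searched for motifs with Python 3.11.15, and plots were drawn with matplotlib 3.10.9.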

Additional observations from a re-analysis of the deposited data

How the results depend on the processing

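Across 15 other settings, 31 of the 43 lower calls held in every one and 12 were lost in at least 1, and 36 held with each single library left out. The calls lost came to 6 with upper-quartile factors, 3 with library size only, 0 to 7 with a single library left out, and 12 and 6 without both libraries of replicate 1 or 2. Without both libraries of replicate 1 they were PSMA2, PSMA6, PSMB1, PSMB4, PSMB10, PSMC1, PSMC3, PSMD4, PSMD8, PSMD13, PSMG2 and PSMG4. Without both libraries of replicate 2 they were PSMA6, PSMB4, PSMD4, PSMD8, PSMG2 and PSMG4. Calls lost with edgeR's exact test, with DESeq2 and with all genes of at least 1 count came to 0. With the replicate block 44 genes were lower, since PSMB8 was added, and the block changed no other call of a proteasome gene. With upper-quartile factors 1 proteasome gene was higher (PSMF1). The immuno subunits called lower numbered 0 with upper-quartile factors, 2 with the replicate block and 0 to 2 with libraries left out. The median log2-fold change of the 46 genes was -0.50 with upper-quartile factors, -0.54 with library size only and between -0.78 and -0.59 with libraries left out. PSMB9 lay between -0.25 and 0.26 with a single library left out, was 0.28 without both libraries of replicate 2, and changed sign without normoxia replicate 1 (-0.04), hypoxia replicate 3 (-0.25) or both libraries of replicate 3 (-0.17). PSMF1 lay between -0.021 and 0.071 and changed sign without normoxia replicate 1 (-3.47e-06), normoxia replicate 2 (-0.021) or hypoxia replicate 3 (-0.01). The cause of these changes was not tested. PSMB9 had 124 to 609 counts per library, the lowest mean count of the members.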

Other observations

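The 5 antisense RNAs that the rule left out all rose (30.4% of all genes tested rose), and they are described here because of values that had been seen. PSMD5-AS1 had 37.9, 41.7 and 25.7 CPM in normoxia and 89.8, 87.4 and 59.7 CPM in hypoxia (log2-fold change 1.17 ± 0.21, SE, adjusted p = 0.0023), while PSMD5 fell by 0.54. PSMG3-AS1 had 10.6, 11.3 and 7.66 CPM in normoxia and 20.5, 19.7 and 16.1 CPM in hypoxia (0.92 ± 0.17, adjusted p = 0.00242), while PSMG3 fell by 1.23. Both calls held with each library left out. PSMA3-AS1 (0.35, adjusted p = 0.0288), PSMD6-AS2 (0.56, adjusted p = 0.0323) and PSMB8-AS1 (0.67, adjusted p = 0.0487) rose by less, and their calls were lost in most fits with libraries left out. PSMB8-AS1 shares 226 exon bases with PSMB8 and 456 with TAP1 on the opposite strand, and since the strand setting of the counting is not given in the sources used here, reads of these bases cannot be told apart. The other 4 share no exon base with another gene of the deposited annotation on the primary chromosome.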
